A study of Mus musculus with 6 samples.

Results

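A set of 10 genes of the Nodal and BMP pathways were followed in mouse embryonic stem (ES) cells with and without Zscan10: the ligand genes Nodal, Gdf3 and Bmp4, the co-receptor gene Tdgf1, the inhibitor genes Lefty1, Lefty2 and Smad7, and the target genes Id1, Id2 and Id3. They were taken by symbol, and each of the 10 symbols matched exactly 1 of the 23244 loci in every file. The Zscan10-null group comprised 3 libraries from a subcloned ES cell line lacking Zscan10. The control group comprised 3 libraries from ES cells in which Zscan10 was floxed, that is flanked by sites for the Cre recombinase, but had not been deleted. The titles of the control libraries bear the mark -Tx, whose meaning is not explained in the labels. All 6 libraries were made from total RNA depleted of ribosomal RNA, and each gene's level is given in FPKM, a count of fragments scaled by transcript length and library depth. Because the null cells are a subclone, genotype and clone cannot be told apart. Whether the 3 libraries of a group are from different cultures is not stated in the labels, and p-values measure only the spread between these libraries, which may be technical.

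Nodal and GDF3 bind activin receptors with the help of the co-receptor CRIPTO, the product of Tdgf1, and lead to phosphorylation of SMAD2 and SMAD3, which enter the nucleus with SMAD4 and act on DNA with partners such as FOXH1. The secreted proteins LEFTY1 and LEFTY2 are targets of this branch that block Nodal signalling, a negative feedback loop. BMP4 acts through BMP receptors on SMAD1 and SMAD5, whose best known targets in ES cells are the Id genes. ID proteins bind E proteins and keep them off DNA, and in mouse ES cells BMP4 and ID proteins are known to hold back neural differentiation. SMAD7 is an inhibitor inside the cell that acts on both branches.

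The FPKM values summed to 664555 to 678200 in the null libraries and to 685905 to 699401 in the control libraries. Steps between the low values put the depth at about 7500000 to 8320000 fragments in the null libraries and 7580000 to 8290000 in the control libraries, a rough estimate. Zscan10 was at 5.49, 4.43 and 5.47 FPKM in the null libraries, against 44.2, 43.0 and 41.9 FPKM in the control libraries, low in every library labelled null, though the labels do not say which exons were deleted. The 6 ES cell markers Pou5f1, Sox2, Nanog, Esrrb, Zfp42 and Klf4 summed to 1650 to 1769 FPKM in null and 1819 to 1861 FPKM in control libraries. Esrrb (log2 fold change -0.21, limma adjusted p = 0.00942) and Zfp42 (-0.23, adjusted p = 0.0188) were lower in null cells. Pou5f1, Sox2, Nanog and Klf4 did not pass. Markers of other cell types were low: the 7 endoderm markers summed to 2.68 to 3.63 FPKM in null and 3.63 to 4.83 FPKM in control libraries, and the 4 trophectoderm markers to 11.9 to 17.8 FPKM in null and 14.1 to 18.7 FPKM in control libraries. The 4 neuroectoderm markers summed to 12.6 to 14.9 FPKM in null and 15.2 to 16.7 FPKM in control libraries, and the 6 feeder fibroblast markers to 4.16 to 5.99 FPKM in null and 7.07 to 8.89 FPKM in control libraries. Of the neuroectoderm markers only Pax6 passed, and it was lower in null cells (log2 fold change -0.31, limma adjusted p = 0.0241). The fibroblast markers did not move together: the collagen genes Col1a1 (0.0861 FPKM in null and 0.738 FPKM in control cells) and Col1a2 (0.0776 FPKM in null and 1.13 FPKM in control cells) lay under the minimum for testing, with no overlap between the groups. Acta2, a smooth muscle actin gene, was lower at 1.73 FPKM in null and 3.93 FPKM in control cells (log2 fold change -0.89, limma adjusted p = 0.0331), and the surface protein gene Thy1 was higher at 2.98 FPKM in null and 1.65 FPKM in control cells (0.60, adjusted p = 0.0215). Col3a1 was at 0.395 FPKM in null and 0.363 FPKM in control cells, and Postn was listed at 0 in the 3 null libraries and averaged 0.0797 FPKM in control cells. The 6 mesoderm markers summed to 6.02 to 7.75 FPKM in null and 2.84 to 3.39 in control libraries. Eomes and Hand1, discussed with the pathway targets, rose among them, while T reached at most 0.391 FPKM and Mixl1 at most 0.287 FPKM in any library. The part of these cell types in the results below was not tested. No marker was at 0 in all 6 libraries. In bulk RNA, fewer cells of a type and less RNA per cell cannot be told apart.

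Of these, 6 of the 10 genes differed between null and control cells by limma with an adjusted p under 0.05: Nodal, Id1 and Id2 were higher, and Gdf3, Lefty1 and Lefty2 were lower. Bmp4, Tdgf1, Smad7 and Id3 did not pass. The shares must be read against a broad background, since 25.2% of the 11480 tested loci passed, 12.8% higher and 12.4% lower in null cells. For 9 of the 10 genes the values of the null and control libraries did not overlap, 5 higher and 4 lower, against 44.1% of the tested loci, 21.6% higher and 22.5% lower. All 10 genes were tested, and they were chosen with earlier results of these data known, so these counts are a description. The median log2 fold change of the 10 genes was 0.22, against a median of -0.003 over all tested loci. An exact two-sided permutation test of 3 libraries against 3 cannot give a p under 0.1, so the calls rest on the spread that limma shares across loci.

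**Figure D1:**
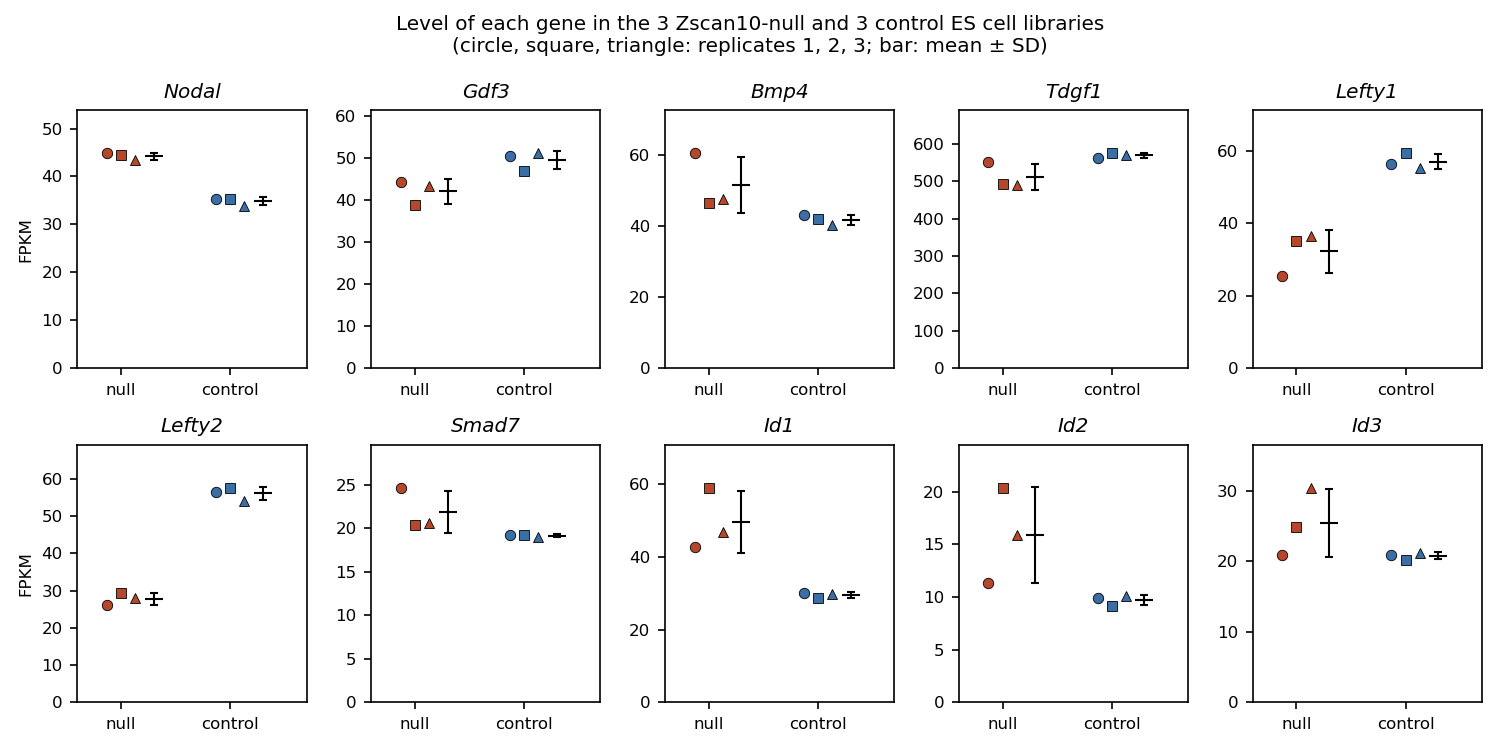
FPKM of each of the 10 genes in the 3 null and 3 control libraries, with circles, squares and triangles for replicates 1, 2 and 3 and a bar for the mean ± SD. Lefty1 and Lefty2 lie far lower in all 3 null libraries, Id1 lies higher, and Id3 overlaps between the groups.

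**Figure D2:**
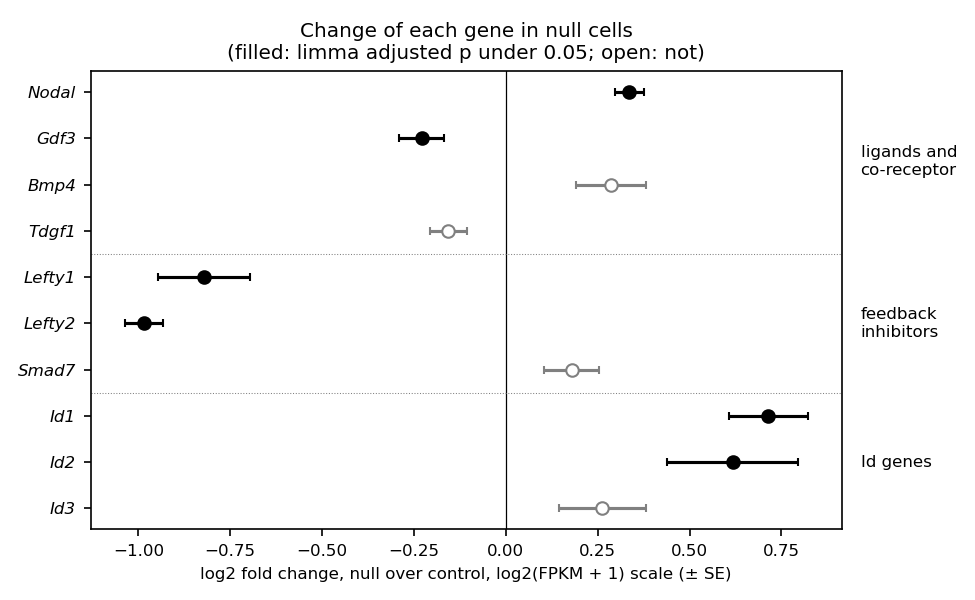
Log2 fold change of each gene, null over control, on the log2(FPKM + 1) scale with its SE, ordered by role. Filled points passed a limma adjusted p of 0.05, and they run from -0.98 for Lefty2 to 0.71 for Id1.

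The ligand gene Nodal (chromosome 10, 61417972 to 61425338, mm10) was higher in null cells. Nodal was at 44.8, 44.5 and 43.4 FPKM in the null libraries, against 35.3, 35.3 and 33.8 FPKM in the control libraries. All 3 null libraries lay above all 3 control libraries, and the spread within a group was small. The SD was 1.72% of the mean in null and 2.47% in control cells. Counting of the estimated fragments alone would give 3.72% and 4.19%, so the SE may be too small. The mean was 44.2 ± 0.762 FPKM in null and 34.8 ± 0.861 FPKM in control cells (SD, n = 3 each), a ratio of 1.27 (log2 fold change 0.34, SE 0.04, limma adjusted p = 0.00163).

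Gdf3 (chromosome 6, 122605403 to 122610087), which encodes a Nodal-related ligand that also uses CRIPTO, was lower. It was at 44.3, 38.8 and 43.3 FPKM in the null libraries, against 50.4, 47.0 and 51.1 FPKM in the control libraries. The groups did not overlap, but null replicate 1 lay close to control replicate 2. The log2 fold change was -0.23 ± 0.06 (SE; limma adjusted p = 0.0320). The call was lost without control replicate 1 (adjusted p = 0.0992), control replicate 3 (0.0974), null replicate 2 (0.0671) or null replicate 3 (0.0585), and without the mean-variance trend (0.0559), so the fall of Gdf3 is marginal.

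Bmp4 (chromosome 14, 46383525 to 46390669), the BMP ligand gene with the highest level in these cells, did not pass. It was at 60.5, 46.6 and 47.5 FPKM in the null libraries, against 43.1, 42.1 and 40.3 FPKM in the control libraries. Every null library was above every control library, with null replicate 1 far above the other two. The mean was 51.6 ± 7.77 FPKM in null and 41.8 ± 1.41 FPKM in control cells (log2 fold change 0.29, SE 0.10, limma adjusted p = 0.0654). Without null replicate 1 the log2 fold change was smaller, at 0.17, and the adjusted p was 0.0382.

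Tdgf1 (chromosome 9, 110939608 to 110946158) had the highest level of the 10 genes. It was at 553, 492 and 490 FPKM in the null libraries, against 562, 575 and 571 FPKM in the control libraries. Null replicate 1 lay close under the control libraries and the other two lay lower. The log2 fold change was -0.16 ± 0.05 (SE; limma adjusted p = 0.0609), and the adjusted p was 0.00687 without null replicate 1 and 0.0418 with robust variance estimates. A processed copy, Tdgf1-ps1, holds 12.5% of the 50-base words of the Tdgf1 transcript, so some fragments could have been split between them.

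RefSeq promoter windows of build GRCm38.p6 were at hand for 5 of the 10 genes, Nodal, Bmp4, Tdgf1, Id2 and Id3. Each window of 300 bases runs from 250 before to 50 after the start of the gene. The windows were searched on both strands for CAGAC, letters bound by SMAD3 and SMAD4, for GGCGCC, found in BMP response elements, and for TGTNNATT, a FOXH1-type motif, with reverse complements counted as matches. CAGAC was present in 49.6%, GGCGCC in 11.9% and TGTNNATT in 12.2% of 32851 promoter windows of the mouse table. The 250 bases before the start are shown for Nodal, which rose, and for its co-receptor gene Tdgf1, 5′ to 3′ on the strand of the gene. Capitals mark matches, and no matched letters overlapped another match in these windows. The Nodal stretch is chr10:61417722-61417971 on the plus strand and the Tdgf1 stretch is chr9:110946159-110946408 on the minus strand.
Nodal: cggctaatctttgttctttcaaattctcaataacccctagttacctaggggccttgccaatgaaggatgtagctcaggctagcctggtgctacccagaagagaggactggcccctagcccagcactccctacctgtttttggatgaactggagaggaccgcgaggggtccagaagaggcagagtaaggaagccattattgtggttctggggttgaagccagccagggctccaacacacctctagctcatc
Tdgf1: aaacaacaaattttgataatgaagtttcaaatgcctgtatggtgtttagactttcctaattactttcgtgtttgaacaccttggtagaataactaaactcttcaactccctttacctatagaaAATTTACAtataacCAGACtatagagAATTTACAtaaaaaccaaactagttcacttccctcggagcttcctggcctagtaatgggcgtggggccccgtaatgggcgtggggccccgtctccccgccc
The Tdgf1 window held 1 CAGAC and 2 TGTNNATT matches, while the Nodal and Bmp4 windows held 0 of each motif. A match is a description of the letters and not a sign of binding, and a window without a match says only that these letters are not in it.

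The extracellular inhibitor genes Lefty1 and Lefty2 fell the most of the 10 genes, while the intracellular inhibitor gene Smad7 did not pass. Lefty2 (chromosome 1, 180893108 to 180899107) was at 26.2, 29.4 and 28.0 FPKM in the null libraries, against 56.6, 57.7 and 54.1 FPKM in the control libraries. The null libraries were close together and lay at 0.497 times the control mean. The log2 fold change was -0.98 ± 0.05 (SE; limma adjusted p = 8.75e-05).

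Lefty1 (chromosome 1, 180935022 to 180938401) was at 25.3, 35.0 and 36.4 FPKM in the null libraries, against 56.3, 59.3 and 55.4 FPKM in the control libraries. All null libraries were below all control libraries, and null replicate 1 was the lowest. The mean was 32.2 ± 6.04 FPKM in null and 57.0 ± 2.08 FPKM in control cells, a ratio of 0.565 (log2 fold change -0.82, SE 0.12, limma adjusted p = 0.00413). Without null replicate 1 the log2 fold change was -0.66, and the adjusted p was 8.07e-04.

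Lefty1 and Lefty2 lie 35.9 kb apart and are close copies. Their coding sequences of 1107 bases each, taken as the longest open reading frames of the GENCODE M21 transcripts, were 91.9% identical. Of the 50-base words of the Lefty1 transcript 17.9% also occur in Lefty2, and 11.6% of those of Lefty2 occur in other genes. Fragments from the shared stretches could have been given to either gene, so the split between them is less certain than the fall of both. The ratio of Lefty1 to Lefty2 FPKM was 0.965, 1.19 and 1.30 in the null libraries, against 0.996, 1.03 and 1.02 in the control libraries, and the groups overlapped.

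Loci within 100 kb of the 10 genes were examined after the values of the Lefty genes were known. Of 23 such loci tested, 1 rose and 5 fell, a share near the 25.2% called among all tested loci. Near the Lefty genes, Tmem63a, an ion channel gene, was at 2.20 ± 0.284 FPKM in null and 4.05 ± 0.116 FPKM in control cells (log2 fold change -0.66, limma adjusted p = 0.00277). Sde2 (log2 fold change 0.07), H3f3a (-0.06) and Ephx1 (-0.17) failed the test. Pald1 (0.28, adjusted p = 0.00875) and Eif4ebp2 (-0.25, adjusted p = 0.0218) beside Nodal passed, as did Dppa3 (-0.88, adjusted p = 0.00327) beside Gdf3.

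Smad7 (chromosome 18, 75367365 to 75395935) was at 24.7, 20.4 and 20.6 FPKM in the null libraries, against 19.2, 19.2 and 19.0 FPKM in the control libraries. The null libraries were all slightly higher, and null replicate 1 stood above the other two. The log2 fold change was 0.18 ± 0.07 (SE; limma adjusted p = 0.120), and it was 0.09 without null replicate 1.

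The Id genes were higher in null cells for 2 of 3. Id1 (chromosome 2, 152736251 to 152737410) was at 42.9, 59.1 and 46.9 FPKM in the null libraries, against 30.2, 28.6 and 29.9 FPKM in the control libraries. The lowest null library lay well above the highest control library, and null replicate 2 was the highest. The mean was 49.6 ± 8.45 FPKM in null and 29.6 ± 0.831 FPKM in control cells, a ratio of 1.68 (log2 fold change 0.71, SE 0.11, limma adjusted p = 0.00388).

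Id2 (chromosome 12, 25093799 to 25096092) was at 11.3, 20.4 and 15.9 FPKM in the null libraries, against 9.90, 9.19 and 10.1 FPKM in the control libraries. The null values spread widely, and null replicate 1 was close to the control libraries. The log2 fold change was 0.62 ± 0.18 (SE; limma adjusted p = 0.0416). The call was lost without any single control library (adjusted p from 0.0921 to 0.122), without null replicate 2 (0.0754) or 3 (0.110), with the replicate number as a block (0.0603), without the mean-variance trend (0.0600) and without the FPKM minimum (0.0713), so the rise of Id2 is marginal. Id2 also rests on few reads, about 95.7 to 215 fragments a library.

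Id3 (chromosome 4, 136143822 to 136145392) was at 20.9, 24.9 and 30.4 FPKM in the null libraries, against 20.9, 20.2 and 21.1 FPKM in the control libraries. It is the 1 gene of the 10 whose groups overlapped, because null replicate 1 fell among the control libraries. The log2 fold change was 0.26 ± 0.12 (SE; limma adjusted p = 0.146), and it was 0.39 without null replicate 1 (adjusted p = 0.0221) and 0.13 without null replicate 3 (adjusted p = 0.305). The 3 Id coding sequences were 52.7% to 54.2% identical in pairs, and Id1 and Id3 shared no 50-base word with another gene.

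The 250 bases before the start of Id2, which passed the test, and of Id3, which did not, are shown in the same way, with capitals for matches. The Id2 stretch is chr12:25096093-25096342 on the minus strand and the Id3 stretch is chr4:136143572-136143821 on the plus strand.
Id2: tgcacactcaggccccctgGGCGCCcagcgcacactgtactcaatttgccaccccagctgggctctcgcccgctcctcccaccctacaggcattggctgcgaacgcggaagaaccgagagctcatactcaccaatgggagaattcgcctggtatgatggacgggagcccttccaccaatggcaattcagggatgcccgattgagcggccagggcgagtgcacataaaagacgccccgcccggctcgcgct
Id3: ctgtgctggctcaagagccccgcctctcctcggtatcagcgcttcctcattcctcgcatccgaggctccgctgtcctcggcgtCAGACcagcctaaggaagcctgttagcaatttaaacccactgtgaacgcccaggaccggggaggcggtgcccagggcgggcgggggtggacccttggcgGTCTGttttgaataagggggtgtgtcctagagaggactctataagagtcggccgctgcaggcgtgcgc
The Id2 window held 1 GGCGCC and 0 CAGAC, and the Id3 window held 2 CAGAC, each on a different strand, and 0 GGCGCC. TGTNNATT was in neither.

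The order of the levels differed between the groups. In null cells Tdgf1, at 512 FPKM, was followed by Bmp4 (51.6), Id1 (49.6), Nodal (44.2), Gdf3 (42.1), Lefty1 (32.2), Lefty2 (27.9), Id3 (25.4), Smad7 (21.9) and Id2 (15.9). In control cells Tdgf1, at 569 FPKM, was followed by Lefty1 (57.0), Lefty2 (56.1), Gdf3 (49.5), Bmp4 (41.8), Nodal (34.8), Id1 (29.6), Id3 (20.8), Smad7 (19.1) and Id2 (9.72). These are levels per length of transcript. Among the neighbours in the null order, Bmp4 and Id1, Id1 and Nodal, Nodal and Gdf3, Lefty1 and Lefty2, Lefty2 and Id3, and Id3 and Smad7 differed by less than the larger of their SDs, as did Lefty1 and Lefty2 in the control order.

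Ratios taken within a library do not depend on how libraries were scaled to each other, and they were examined as a description with no test. The summed FPKM of Lefty1 and Lefty2 was 1.15, 1.45 and 1.48 times that of Nodal in the null libraries, against 3.19, 3.32 and 3.24 times in the control libraries. The null libraries all lay far below the control libraries, with a mean of 1.36 ± 0.184 in null and 3.25 ± 0.0614 in control cells (SD, n = 3 each).

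Id1 FPKM was 0.832, 0.917 and 0.728 times the summed Lefty FPKM in the null libraries, against 0.267, 0.245 and 0.273 times in the control libraries. The groups were far apart, and the mean ratio in null cells was 3.15 times that in control cells. Id1 over Bmp4, a target over its ligand, was 0.708, 1.27 and 0.986 in the null libraries, against 0.700, 0.680 and 0.743 in the control libraries. Here null replicate 1 lay among the control libraries. Summed Id1, Id2 and Id3 over Bmp4 was 1.24, 2.24 and 1.96 in the null libraries, against 1.42, 1.38 and 1.52 in the control libraries. Null replicate 1 lay below all control libraries, and null replicates 2 and 3 lay above them.

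**Figure D3:**
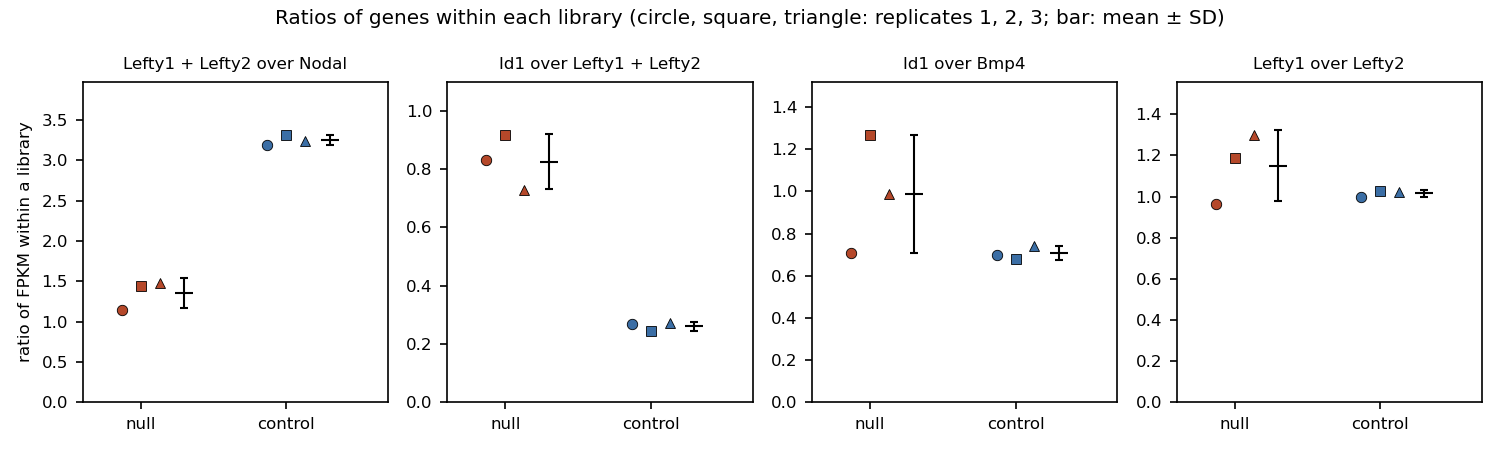
Ratios of FPKM within each library for 4 pairs of genes, with circles, squares and triangles for replicates 1, 2 and 3 and a bar for the mean ± SD. The ratio of both Lefty genes to Nodal and that of Id1 to both Lefty genes separate null from control libraries, while Id1 over Bmp4 and Lefty1 over Lefty2 overlap.

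The null libraries differed among themselves in these genes more than the control libraries did. The SD of the log2 values was larger in null than in control cells for 9 of the 10 genes, the exception being Nodal, against 59.2% of all tested loci. The median SD of the 10 genes was 0.18 in null and 0.04 in control cells, against 0.09 in null and 0.07 in control cells over all tested loci. Relative to the control mean, null replicate 1 had the lowest Lefty1 (log2 difference -1.14) and the highest Bmp4 (0.52) and Smad7 (0.35) of the null libraries, and also the lowest Id1 (0.52), Id2 (0.20) and Id3 (0.01). Null replicate 2 had the highest Id1 (0.97) and Id2 (0.997), and null replicate 3 the highest Id3 (0.53).

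The relative spread was set against the counting error that the estimated fragments of each library would give. In null cells the observed coefficient of variation was above the counting error for 9 of the 10 genes, as for Id1 (17.0% observed, 5.31% from counting), Bmp4 (15.1% and 3.49%) and Lefty1 (18.7% and 5.01%). In control cells it was above for 3 of the 10, and Id1 was at 2.81% observed with 6.81% from counting. The share of all tested loci above their counting error is not given here, so these counts have no background to be read against. Over 8134 loci averaging at least 20 estimated fragments, the median squared difference between libraries, divided by the counting variance, was 0.80 to 1.01 for pairs of null libraries and 0.568 to 0.659 for pairs of control libraries, where counting alone gives 0.455. All pairs lay above that value, so no library repeats the values of another. The comparison cannot tell separate cultures from technical repeats, because spread beyond counting can come from either.

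**Figure D4:**
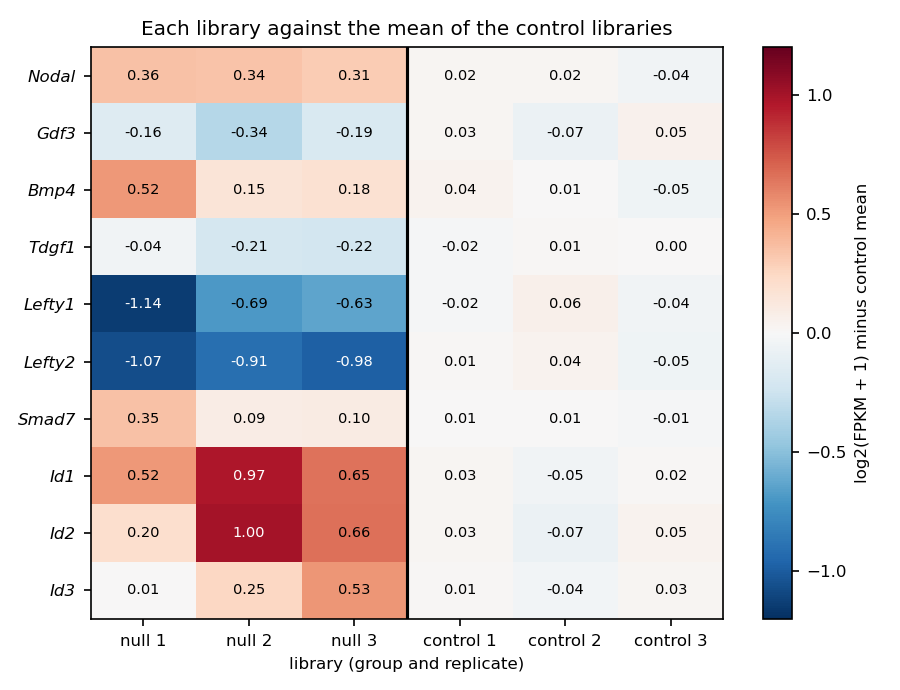
Log2(FPKM + 1) of each gene in each library minus the mean of the 3 control libraries, by colour and number. Lefty1 and Lefty2 are below 0 and Nodal and Id1 above 0 in all 3 null libraries, while Id2 and Id3 are near 0 in null replicate 1.

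Loci whose log2 values over the 6 libraries were most like those of Nodal, Lefty2 and Id1 were listed by Pearson r. Because the libraries form 2 groups, such an r mostly reflects a difference between the groups and is given as a description. For Nodal these were Tmprss11d (r = 0.999), a serine protease gene, Ube2s (0.999), which encodes a ubiquitin-conjugating enzyme of the anaphase-promoting complex, and Ptp4a2 (0.997), a phosphatase gene. For Lefty2 they were the autophagy kinase gene Ulk2 (0.998), the protein disulfide isomerase gene P4hb (0.998) and Mllt11 (0.998). For Id1 they were the exonuclease gene Aen (0.999), Usp17le (0.997), a multi-copy deubiquitinase gene whose copies can share reads, and Pramef12 (0.997). Of the 10 genes themselves, Lefty1 had r = 0.956 with Lefty2, Nodal had r = -0.980 with Lefty2, and Id2 had r = 0.949 with Id1.

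Other genes of the pathway were read from lists of 87 genes, of which 43 reached the minimum of 1 FPKM. Of these 43, 9 were higher and 9 lower in null cells, 41.9% in all, beside 25.2% of all tested loci, with a median log2 fold change of -0.03. The lists were chosen with earlier results of these data known, so the larger share is a description and not a test of the pathway. Among the other SMAD2 and SMAD3 ligands 0 of 3 tested rose and 1 fell. Gdf1, which forms dimers with Nodal, was at 2.41 ± 0.868 FPKM in null and 4.16 ± 0.353 FPKM in control cells (log2 fold change -0.63, limma adjusted p = 0.0461), but this call held in only 3 of 13 alternatives. Inhbb, an activin subunit gene, was at 5.03 FPKM in null and 5.79 FPKM in control cells and did not pass (adjusted p = 0.230). Of 10 other BMP and GDF ligand genes 1 was tested, Bmp7, which was higher at 1.51 ± 0.181 FPKM in null and 0.837 ± 0.0770 FPKM in control cells (0.45, adjusted p = 0.0189). The Bmp7 call was lost with the replicate number as a block and without null replicate 3 or control replicate 1 (adjusted p up to 0.0565). Bmp8b was untested, at 0.543 FPKM in null and 0.686 FPKM in control cells.

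Of the receptor and co-receptor genes 0 of 8 tested rose and 3 fell. Bmpr2, the type II BMP receptor gene, was at 2.39, 2.75 and 3.67 FPKM in the null libraries, against 5.19, 4.79 and 5.46 FPKM in the control libraries. The groups did not overlap, and the log2 fold change was -0.65 ± 0.12 (SE; limma adjusted p = 0.00947). Rgmb, a BMP co-receptor gene, was at 2.55 FPKM in null and 3.63 FPKM in control cells (-0.38, adjusted p = 0.0282, lost in 6 of 13 alternatives). Tgfbr1, a type I TGF-beta receptor gene, was at 10.2 FPKM in null and 11.7 FPKM in control cells (-0.19, adjusted p = 0.0393, lost in 10 of 14 alternatives). The activin receptor genes Acvr1b, Acvr2a and Acvr2b, which serve Nodal, had log2 fold changes of -0.26, -0.17 and -0.09 and failed the test, as did the BMP receptor gene Bmpr1a at -0.08; these 4 were named after their values were seen.

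Among the SMAD genes and Foxh1, 2 of 7 tested rose and 1 fell. Foxh1, the DNA-binding partner of SMAD2 and SMAD3, was at 67.7, 59.2 and 62.9 FPKM in the null libraries, against 43.5, 46.8 and 43.6 FPKM in the control libraries. All null libraries were higher, with a log2 fold change of 0.49 and an SE of 0.06 (limma adjusted p = 0.00170). Smad3 was at 4.38 FPKM in null and 3.36 FPKM in control cells (0.30, adjusted p = 0.0224, lost in 7 of 13 alternatives). Smad1 was at 6.22 FPKM in null and 8.35 FPKM in control cells (-0.37, adjusted p = 0.0192), a call lost without null replicate 3 or control replicate 2 (adjusted p up to 0.0602).

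Of 2 tested secreted antagonists 0 rose and 1 fell. Twsg1, a BMP-binding protein gene, was at 11.2 FPKM in null and 12.9 FPKM in control cells (log2 fold change -0.18, limma adjusted p = 0.0390, lost in 10 of 14 alternatives). Dand5, a Nodal antagonist gene, was at 2.04 FPKM in null and 2.18 FPKM in control cells and did not pass (adjusted p = 0.669). The activin antagonist gene Fst lay under the minimum, at 0.342, 0.257 and 0.506 FPKM in the null libraries, against 1.57, 1.60 and 1.58 FPKM in the control libraries. Without the minimum its log2 fold change was -0.92 with a limma adjusted p of 0.00214, and the BMP regulator gene Bmper passed too, at 0.0976 FPKM in null and 0.281 FPKM in control cells (adjusted p = 0.0222). These 2, named after their values were seen, were the only ones of the 44 untested genes to pass without the minimum, both lower. Of the fibroblast markers, Col1a1, Col1a2, Acta2 and Postn were lower in the same null libraries, Thy1 was higher and Col3a1 overlapped between the groups. The part of fibroblasts in the values of Fst and Bmper was not tested.

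Of 11 intracellular repressors and ubiquitin ligases 2 rose and 1 fell. Ski, a repressor of SMAD-driven transcription, was lower at 18.5 ± 0.516 FPKM in null and 24.0 ± 0.933 FPKM in control cells (log2 fold change -0.36, SE 0.05, limma adjusted p = 0.00275). The ubiquitin ligase gene Nedd4l was higher at 6.19 FPKM in null and 4.34 FPKM in control cells (0.43, adjusted p = 0.00465). Tgif2, another repressor of SMAD-driven transcription, was at 17.3 FPKM in null and 14.0 FPKM in control cells (0.29, adjusted p = 0.0175, lost in 3 of 14 alternatives). Of 3 tested proprotein convertases, enzymes that cut ligand precursors, 1 rose and 0 fell: Pcsk6 was at 14.2 ± 2.25 FPKM in null and 10.1 ± 0.383 FPKM in control cells (0.44, adjusted p = 0.0193), a call lost without any single control library (adjusted p up to 0.0650). Furin was at 3.41 FPKM in null and 4.38 FPKM in control cells (adjusted p = 0.112).

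Targets of the SMAD2 branch other than the Lefty genes were higher for 1 of 4 tested and lower for 0. Eomes, a T-box transcription factor gene of mesendoderm and trophoblast, was at 5.12, 3.47 and 4.18 FPKM in the null libraries, against 1.43, 1.54 and 1.13 FPKM in the control libraries. The groups were far apart (log2 fold change 1.14, SE 0.13, limma adjusted p = 0.00170). Skil, a feedback repressor gene of the pathway, was at 28.1 FPKM in null and 27.3 FPKM in control cells (adjusted p = 0.766), and Pmepa1, named after its values were seen, had an adjusted p of 0.568.

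Targets of the SMAD1 branch other than the 3 Id genes were higher for 2 of 5 tested and lower for 0. Dusp9, a phosphatase gene through which BMP signalling is known to restrain ERK in mouse ES cells, was at 42.8, 54.1 and 49.5 FPKM in the null libraries, against 28.0, 25.9 and 26.1 FPKM in the control libraries. The groups did not overlap (log2 fold change 0.84, SE 0.08, limma adjusted p = 9.48e-04), and null replicate 1 was the lowest null library, as it was for Id1 and Id2. Hand1, a transcription factor gene of mesoderm and trophoblast, was at 1.79 ± 0.0847 FPKM in null and 0.577 ± 0.127 FPKM in control cells (0.83, adjusted p = 0.00206). Smad6 (log2 fold change 0.33, adjusted p = 0.101), Bambi (0.10, 0.437) and Id4 (-0.33, 0.112) failed the test; they were named after their values were seen.

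Of the 3 E-protein genes whose products ID proteins bind, 0 rose and 2 fell. Tcf12 was at 5.87, 5.33 and 5.56 FPKM in the null libraries, against 9.71, 10.2 and 10.1 FPKM in the control libraries. The groups were far apart (log2 fold change -0.74, SE 0.06, limma adjusted p = 5.30e-04). Tcf4 was at 6.25 FPKM in null and 7.69 FPKM in control cells (-0.26, adjusted p = 0.0262, lost in 3 of 14 alternatives), and Tcf3, named after its values were seen as the remaining E-protein gene, was at 39.1 FPKM in null and 39.1 FPKM in control cells (adjusted p = 0.972).

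**Figure D5:**
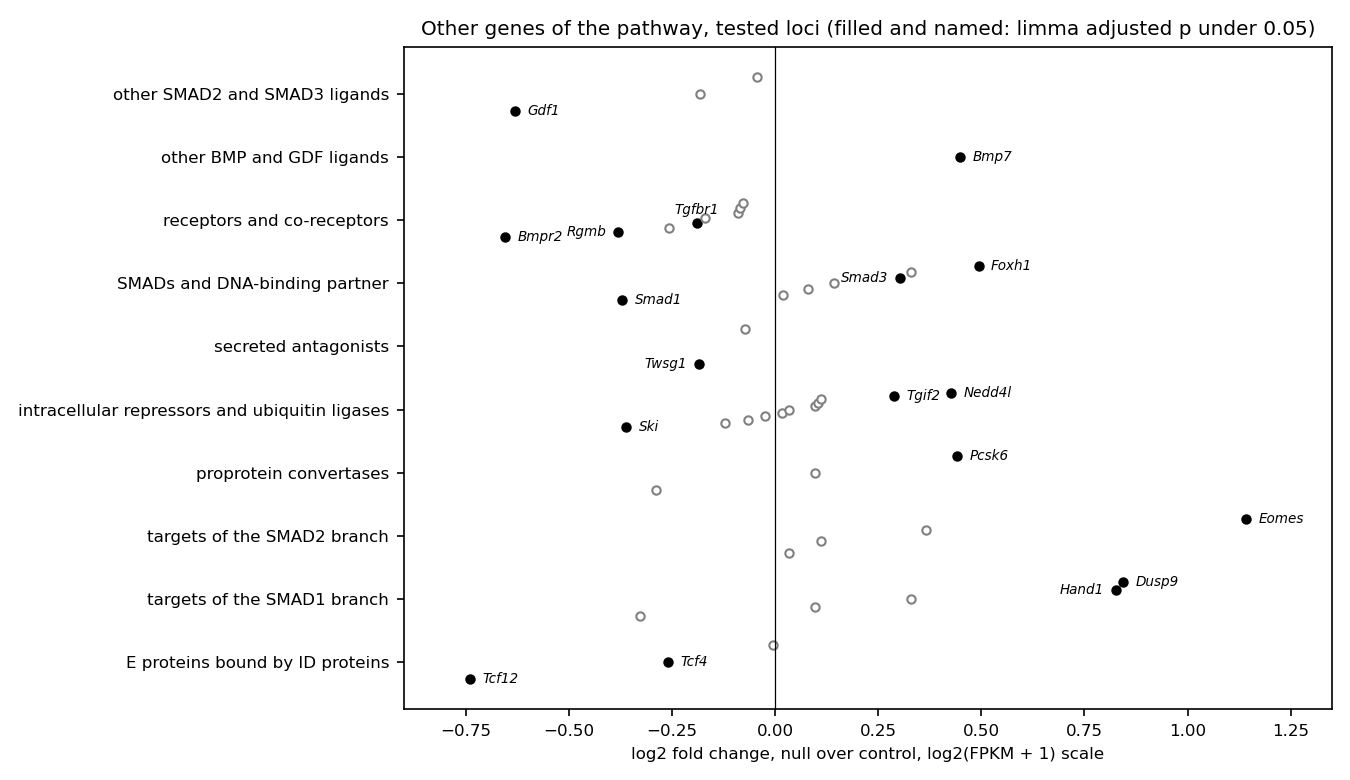
Log2 fold change, null over control, of the tested genes of each pathway list, with filled and named points for genes past a limma adjusted p of 0.05. Points run from -0.74 for Tcf12 to 1.14 for Eomes, and no receptor gene lies above 0.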

How the data were processed

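The 6 mouse ES cell libraries hold total RNA without most ribosomal RNA, per the labels' protocols. TopHat, Cuffdiff, Trim Galore, FastQC and the build mm10 are named in the submitters' processing notes, with versions and roles not given in the sources used here. Each deposited file holds 1 value per locus, taken as FPKM made by the authors, since the values are not whole and their totals differ between libraries; no header states the unit, strand use, read length or scaling between libraries.

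Loci averaging 1 FPKM or more, 11480 in number, were tested as log2(FPKM + 1) by limma 3.58.1 (R 4.3.3; eBayes moderation, variance trended on the mean), with Benjamini-Hochberg adjustment over all of them at 0.05. Fold changes are on that scale and understate changes of low genes. The script was tested on simulated data. No count is in the files used here; fragments were estimated from low values of 1087 genes, which are whole multiples of the smallest within 1% for 80.9% of 5380 values, and transcript length (quartiles over genes 7100000 and 7890000 for control replicate 1). Counting errors cover counting only.

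The members and lists were chosen with earlier results of these data known. Named genes were Zscan10, the 10 members, up to 4 called genes per list by adjusted p (or the 2 of highest FPKM where fewer than 2 passed), and the 3 loci most like Nodal, Lefty2 and Id1, with short RNA, predicted and unnamed loci left out. The planned comparison of protein sequences was replaced by coding sequences. Alternatives changed the pseudocount, minimum, scaling, variance estimate, replicate block and each library in turn.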

Additional observations from a re-analysis of the deposited data

How the results depend on the processing

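The directions of all 10 genes held in all 14 alternatives run, as did the calls of Nodal, Lefty1, Lefty2 and Id1. Gdf3 lost its call in 5 and Id2 in 8; Bmp4 and Id3 gained a call in 1 each and Tdgf1 in 2; Smad7 passed in 0 of 14. Leaving out 1 library at a time, 2 to 5 members were called higher and 2 to 4 lower, 1697 to 2903 loci were called in all, against 2894 (1741 without control replicate 1, the lowest without control replicate 2 and the highest without null replicate 1), and 5 to 9 of the other pathway genes were called higher and 3 to 8 lower, against 9 each with all libraries (lower: 5 without control replicate 1, 3 without control replicate 2, 5 without control replicate 3 and 4 without null replicate 3). Without null replicate 1 the members called higher were 5 in place of 3. With a minimum of 5 FPKM 5 pathway genes were called higher, where fewer genes were tested. With FPKM + 1 the control ratio of the Lefty genes to Nodal was 3.19 in place of 3.25. Deviations of same-numbered null and control libraries correlated at -0.00242, 0.108 and 0.0527, and those of other pairs at -0.222 to 0.163. Estimated depth was highest in replicate 2 of both groups. It was 7500000, 8320000 and 7600000 fragments in null replicates 1 to 3, and 7610000, 8290000 and 7580000 in control replicates 1 to 3. Whether same-numbered libraries were handled together was not tested. With the number as a replicate block 2264 loci, 2 members higher and 3 lower, and 5 pathway genes lower were called. Id2 had the fewest estimated fragments of the 10 genes. Its coefficient of variation in null cells was 28.65%, with 8.18% from counting.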
